A study of Mus musculus with 6 samples.

Results

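Axin2, Nkd1, Nkd2, Rnf43, Znrf3, Sp5, Lef1, Tcf7, Wnt9a and Dkk3 are genes that the canonical Wnt pathway switches on, or that turn its signal up or down. These 10 genes, of the 49592 in the deposited table, were taken by name as a set of Wnt targets and feedback regulators, because Axin2 was higher and Nkd2 and Wnt9a were lower after treatment. The members were thus chosen by their measured FPKM in treated against untreated cells, and their differences are given below as a description, with no test.

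The cells were C2C12, an immortalised line of mouse myoblasts that stop dividing in low serum and join into multinucleated myotubes. All cultures were grown in 10% fetal bovine serum and then differentiated for 3 days in 2% horse serum. The resulting myotubes were either left untreated or given TWEAK, a cytokine of the tumour necrosis factor superfamily that acts through the receptor Fn14, at 10 ng/ml for 12 h. Poly(A)-selected RNA was sequenced in 3 libraries per group, numbered as trials 1 to 3. The labels do not say whether the trials were separate cultures, so every p-value measures only the spread between these libraries. A single line in culture also lacks the fibres, nerve and other cells of muscle tissue.

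In the canonical pathway a Wnt ligand binds a Frizzled receptor and an LRP co-receptor, which stops the destruction complex built on Axin from degrading beta-catenin. Beta-catenin then binds transcription factors of the TCF/LEF family and activates target genes. Several targets encode brakes on the same signal: Axin2 rebuilds the destruction complex, Nkd proteins bind Dishevelled, and Rnf43 and Znrf3 remove Frizzled from the cell surface. In muscle, Wnt signals take part in myoblast differentiation and in the regeneration of fibres.

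The level of each gene is its FPKM, fragments per kilobase of gene and per unit of sequencing depth, so that levels can be set side by side between genes of different length. Depth ran from 29981300 to 40921330 reads per library, recovered from the FPKM values. A gene was tested if its mean FPKM over the 6 libraries was at least 0.5, which 12770 genes reached. Of the 10 Wnt genes, 7 reached that minimum, and Nkd1, Rnf43 and Sp5 did not. Differences on the log2 scale are TWEAK minus untreated, on log2(FPKM + 1), which understates the change of genes near 0.

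The sequences around the annotated start sites are given for the 3 genes that led to the choice and for Sp5, which had no read in any library. RefSeq promoters (build GRCm38.p6, 250 bases before to 50 bases after the start) were matched for 8 of the 10 genes, with 13 entries in all. Znrf3 and Dkk3 were not matched. The windows lie at chr11:108920099-108920398 on the plus strand for Axin2, chr13:73847582-73847881 on the minus strand for Nkd2, chr11:59306680-59306979 on the plus strand for Wnt9a and chr2:70474673-70474972 on the plus strand for Sp5. Each is printed 5′ to 3′ along its gene, with capitals marking matches to a TCF/LEF heptamer or a GC box.
Axin2: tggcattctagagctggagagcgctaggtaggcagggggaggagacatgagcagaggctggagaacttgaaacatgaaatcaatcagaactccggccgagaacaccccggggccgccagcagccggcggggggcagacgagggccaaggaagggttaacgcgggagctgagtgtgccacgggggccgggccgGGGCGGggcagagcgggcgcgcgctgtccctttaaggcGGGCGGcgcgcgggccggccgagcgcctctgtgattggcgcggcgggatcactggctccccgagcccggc
Nkd2: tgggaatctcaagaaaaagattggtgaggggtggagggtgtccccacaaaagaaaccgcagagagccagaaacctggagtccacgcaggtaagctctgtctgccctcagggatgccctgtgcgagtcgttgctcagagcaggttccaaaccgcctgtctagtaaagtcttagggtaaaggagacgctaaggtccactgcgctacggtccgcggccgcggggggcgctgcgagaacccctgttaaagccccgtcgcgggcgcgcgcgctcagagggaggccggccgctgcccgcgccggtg
Wnt9a: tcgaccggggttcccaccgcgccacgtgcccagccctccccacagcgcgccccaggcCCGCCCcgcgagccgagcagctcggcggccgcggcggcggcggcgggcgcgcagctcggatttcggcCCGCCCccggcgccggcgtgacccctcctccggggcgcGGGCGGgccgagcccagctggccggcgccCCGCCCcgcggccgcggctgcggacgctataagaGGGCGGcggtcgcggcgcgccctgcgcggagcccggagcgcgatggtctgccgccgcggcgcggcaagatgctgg
Sp5: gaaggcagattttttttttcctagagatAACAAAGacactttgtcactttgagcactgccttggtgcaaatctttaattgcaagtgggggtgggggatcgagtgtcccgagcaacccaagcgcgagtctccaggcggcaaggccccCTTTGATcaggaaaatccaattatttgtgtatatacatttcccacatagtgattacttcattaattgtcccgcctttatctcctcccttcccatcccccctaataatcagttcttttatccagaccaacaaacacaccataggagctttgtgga

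The TCF/LEF heptamers searched on both strands were CTTTG followed by AA, AT, TA or TT, and the GC box was GGGCGG. A heptamer was in 16.9% and a GC box in 35.7% of the 32851 promoters in the table. The Sp5 window held 2 heptamers, 104 and 222 bases before the start, and no GC box. The windows of Axin2, Nkd2 and Wnt9a held no heptamer. Axin2 had 2 GC boxes, 58 and 20 bases before its start, Wnt9a had 5, and Nkd2 had none. No overlap between the kinds of match occurred in the 4 windows. Among the remaining members, 1 of 4 Lef1 entries held a heptamer, 147 bases before its start. The kappa B motif of NF-kappa B, a transcription factor downstream of TWEAK, was in 8.46% of all promoters and in 0 of the 13 entries. These matches describe letters within a short window and say nothing of binding, and absence from the window says nothing of the factor.

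Axin2 was higher in every TWEAK library than in every untreated one, whereas Nkd2, Wnt9a, Znrf3 and Dkk3 were lower in every TWEAK library. Lef1 was slightly higher without overlap, and the Tcf7 levels overlapped. Groups thus stood apart with TWEAK higher for 2 and with TWEAK lower for 4 of the 7 genes above the minimum. Over all tested genes the same held for 20% with TWEAK higher and 15.9% with TWEAK lower. Because the comparison chose the genes, nothing is read from these counts. The median difference of the 7 genes was -0.27 on the log2 scale, beside 0.01 for all tested genes. In bulk RNA, fewer cells expressing a gene and less of its RNA per cell cannot be told apart.

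**Figure D1:**
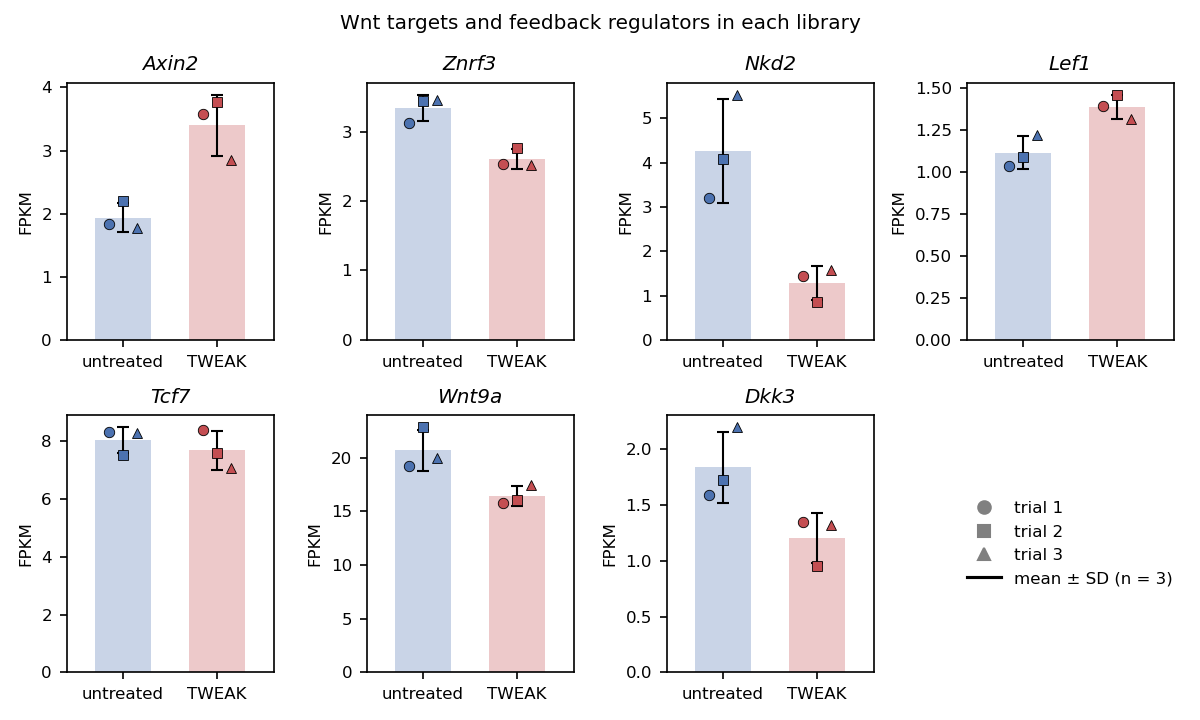
FPKM of the 7 Wnt genes above the minimum in each of the 6 libraries, on linear axes from 0. Points are libraries with a shape for each trial, bars are group means and lines are SD (n = 3). The TWEAK points lie wholly above the untreated points for Axin2 and Lef1, wholly below them for Znrf3, Nkd2, Wnt9a and Dkk3, and among them for Tcf7.

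Axin2, the scaffold that is made in response to beta-catenin and then helps to destroy it, lies at chr11:108811175-108841609 (build GRCm39). It measured 3.57, 3.77 and 2.85 FPKM in TWEAK trials 1, 2 and 3, and 1.84, 2.20 and 1.77 FPKM in the untreated trials 1, 2 and 3. The lowest TWEAK library stood above the highest untreated one, and trial 2 was the highest of each group. The means were 3.40 ± 0.485 FPKM with TWEAK and 1.94 ± 0.231 FPKM without (SD, n = 3), a ratio of 1.76. On the log2 scale the difference was 0.58 (SE 0.10). Leaving out each library in turn gave 0.52 to 0.67. These values rest on 260 to 559 reads per library. Within the trials the level was 1.94, 1.72 and 1.62 times as high with TWEAK, so the ratio was above 1.5 in each. The authors' deposited table gives a log2 fold change of 0.81 (SE 0.21) on its own scale.

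Axin1, the constitutively made relative of Axin2 and not among the 10 genes, was the more abundant scaffold in both groups. It measured 15.3 ± 0.585 FPKM with TWEAK and 14.1 ± 0.750 FPKM without (SD, n = 3), and did not pass (limma, adjusted p = 0.317). Axin2 was thus the scaffold with the wider separation between groups, a contrast between the genes that was not itself tested.

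Nkd2, a myristoylated protein that binds Dishevelled and dampens the signal, lies at chr13:73966653-73995750. It measured 1.43, 0.845 and 1.57 FPKM in TWEAK trials 1, 2 and 3, and 3.21, 4.08 and 5.53 FPKM in the untreated trials. The lowest untreated library was above the highest TWEAK library by a wide margin, though the SD in FPKM was larger among untreated libraries. The means were 1.28 ± 0.386 FPKM with TWEAK and 4.27 ± 1.17 FPKM without (SD, n = 3), which is 3.33-fold lower with TWEAK. The log2 difference was -1.20 (SE 0.17), between -1.35 and -1.03 without any 1 library, and was the largest in size among the 7 genes. The within-trial fall was 2.24-fold, 4.82-fold and 3.52-fold in trials 1, 2 and 3. Read support was 118 to 188 reads per TWEAK library and 427 to 901 per untreated library. The authors' deposited table gives -1.74 (SE 0.25) as the log2 fold change.

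Nkd1, the close relative of Nkd2, was almost silent. It had 1, 1 and 0 reads in the TWEAK trials and 7, 1 and 2 reads in the untreated trials. The pooled 2 against 10 reads give a level 4.46 times as high without TWEAK, with a 95% exact binomial interval of 0.95 to 41.9, which includes 1. Such intervals cover counting error only, since reads without molecular identifiers are not independent molecules. Of the Nkd pair, Nkd2 thus supplied nearly all the reads in every library.

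Znrf3 and Rnf43 are membrane E3 ubiquitin ligases that clear Frizzled receptors and are held back by R-spondins. Znrf3 (chr11:5226324-5394847) measured 2.53, 2.77 and 2.53 FPKM in the TWEAK trials and 3.12, 3.44 and 3.46 FPKM in the untreated trials. Its libraries were tightly grouped and did not overlap between groups. The means were 2.61 ± 0.141 and 3.34 ± 0.190 FPKM (SD, n = 3), 1.28-fold lower with TWEAK, with a log2 difference of -0.27 (SE 0.08). Rnf43 had 4, 1 and 4 reads with TWEAK and 6, 4 and 4 without. Its pooled level was 1.39 times as high without TWEAK (95% exact binomial interval 0.559 to 3.63), a difference not detectable at this depth. Znrf3 was the ligase gene of the pair with measurable RNA in these myotubes.

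Sp5, a zinc finger repressor that is a direct beta-catenin target in embryos and stem cells, had 0 reads in all 6 libraries. A count of 0 allows up to 3 reads, which is 0.0733 to 0.10 RPM (reads scaled to depth) depending on the library, for counting error only. The gene with 2 TCF/LEF heptamers in its printed window was therefore the one not detected here.

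Lef1 and Tcf7 encode transcription factors through which beta-catenin acts, and both are reported targets themselves. Lef1 (chr3:130904120-131018005) measured 1.39, 1.46 and 1.31 FPKM with TWEAK and 1.03, 1.09 and 1.22 FPKM without, for trials 1, 2 and 3. The groups did not overlap, but TWEAK trial 3 and untreated trial 3 were close. The means were 1.39 ± 0.0715 and 1.11 ± 0.0963 FPKM (SD, n = 3), 1.24-fold higher with TWEAK, with a log2 difference of 0.18 (SE 0.08). Its within-trial ratios were 1.35, 1.33 and 1.08. Tcf7 (chr11:52143198-52174158) measured 8.37, 7.57 and 7.06 FPKM with TWEAK and 8.30, 7.51 and 8.25 FPKM without. The ranges overlapped, and the means of 7.67 ± 0.659 and 8.02 ± 0.444 FPKM (SD, n = 3) differed by less than the SD of the TWEAK libraries. Tcf7 was the more abundant of these factors in both groups.

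Wnt9a, a secreted ligand known from joint and muscle development, was the most abundant of the 10 genes. It lies at chr11:59197754-59224378 and measured 15.8, 16.1 and 17.5 FPKM in TWEAK trials 1, 2 and 3, and 19.2, 22.8 and 20.0 FPKM in the untreated trials. Every TWEAK library was below every untreated one. The means were 16.4 ± 0.898 and 20.7 ± 1.90 FPKM (SD, n = 3), 1.26-fold lower with TWEAK. The log2 difference was -0.31 (SE 0.08), from -0.36 to -0.24 without any 1 library, and the within-trial falls were 1.22-fold, 1.42-fold and 1.15-fold. Its neighbour on the chromosome, Wnt3a (chr11:59138859-59181578), was at 0 in all 6 libraries.

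Dkk3, a secreted member of the Dickkopf family that, unlike Dkk1, is not a classical LRP antagonist, lies at chr7:111715224-111758264. It measured 1.35, 0.95 and 1.32 FPKM with TWEAK and 1.59, 1.72 and 2.20 FPKM without, for trials 1, 2 and 3. The groups did not overlap, with trial 1 the nearest pair. The means were 1.21 ± 0.223 and 1.84 ± 0.318 FPKM (SD, n = 3), 1.52-fold lower with TWEAK, and the log2 difference was -0.36 (SE 0.11). The falls within trials were 1.18-fold, 1.81-fold and 1.66-fold.

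**Figure D2:**
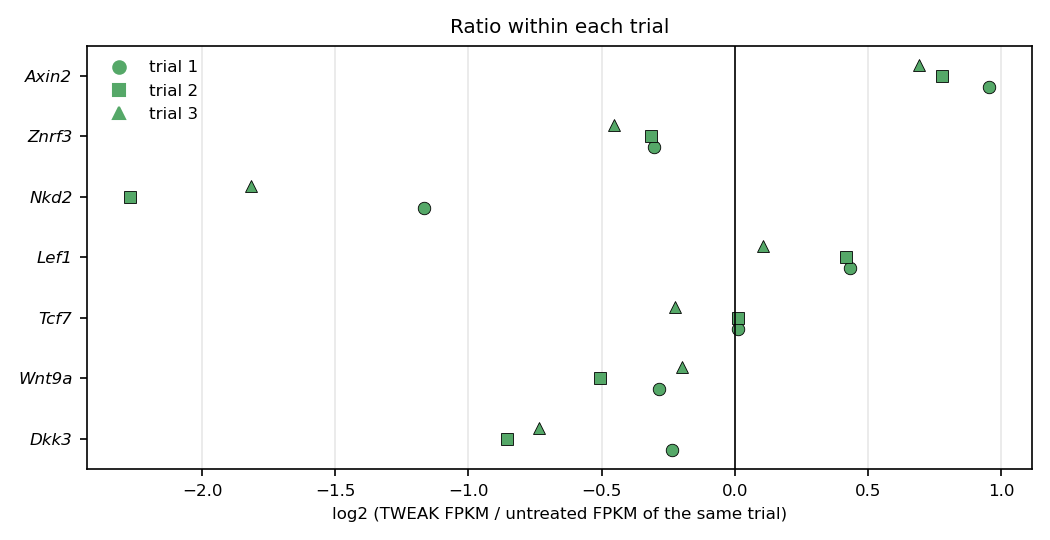
Log2 ratio of TWEAK to untreated FPKM within each trial, for the 7 Wnt genes above the minimum. Each point is 1 trial and the vertical line marks no difference. Nkd2 has the widest ratios, falling 2.24-fold to 4.82-fold, and Axin2 is above the line in 3 of 3 trials. The Tcf7 points of trials 1 and 2 lie nearly on the line, whereas trial 3 is 1.17-fold lower with TWEAK.

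The counting of strand was not given in the sources used here. Axin2 overlaps the predicted gene Gm11670 in position, Nkd2 overlaps Gm8062, and Lef1 overlaps Gm42449 and Lef1os1. Tcf7 overlaps A630014C17Rik, Nkd1 overlaps Gm45496 and Rnf43 overlaps 1110028F11Rik. Positions were compared from gene start to gene end, so reads of these pairs may not be fully separated, which was not tested. Wnt9a overlaps no listed gene.

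The order of the levels shifted between the groups. In untreated myotubes it was Wnt9a, Tcf7, Nkd2, Znrf3, Axin2, Dkk3, Lef1, Rnf43, Nkd1 and Sp5, from the highest mean FPKM to the lowest. The libraries of Nkd2 and Znrf3, of Axin2 and Dkk3, and of Rnf43 and Nkd1 overlapped, so those neighbours did not differ beyond their spread. With TWEAK the order was Wnt9a, Tcf7, Axin2, Znrf3, Lef1, Nkd2, Dkk3, Rnf43, Nkd1 and Sp5. There Lef1, Nkd2 and Dkk3 overlapped as neighbours, as did Rnf43, Nkd1 and Sp5. Axin2 thus moved to the third place and Nkd2 to the sixth, below Znrf3, as a description of the mean levels.

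The other genes of the pathway were taken from 8 lists by role, of which 133 of 134 symbols were in the table and 87 reached the minimum. With limma at an adjusted p threshold of 0.05, 6 of the 87 rose, 17 fell and 64 did not pass. Among all tested genes 8.98% rose and 6.1% fell, and the counts of each list below stand beside these shares. The median log2 difference of the 87 was -0.11, beside 0.01 for all tested genes, and 63 were below 0. Without the reported beta-catenin targets, 1 of 66 rose and 13 fell. With the trial number as a block in the fit the 87 held 7 that rose and 28 that fell, where 15.4% of all tested genes rose and 12.5% fell. Without TWEAK trial 2 the fallen genes numbered 7, without untreated trial 1 they numbered 10 and without untreated trial 2 they numbered 9.

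**Figure D3:**
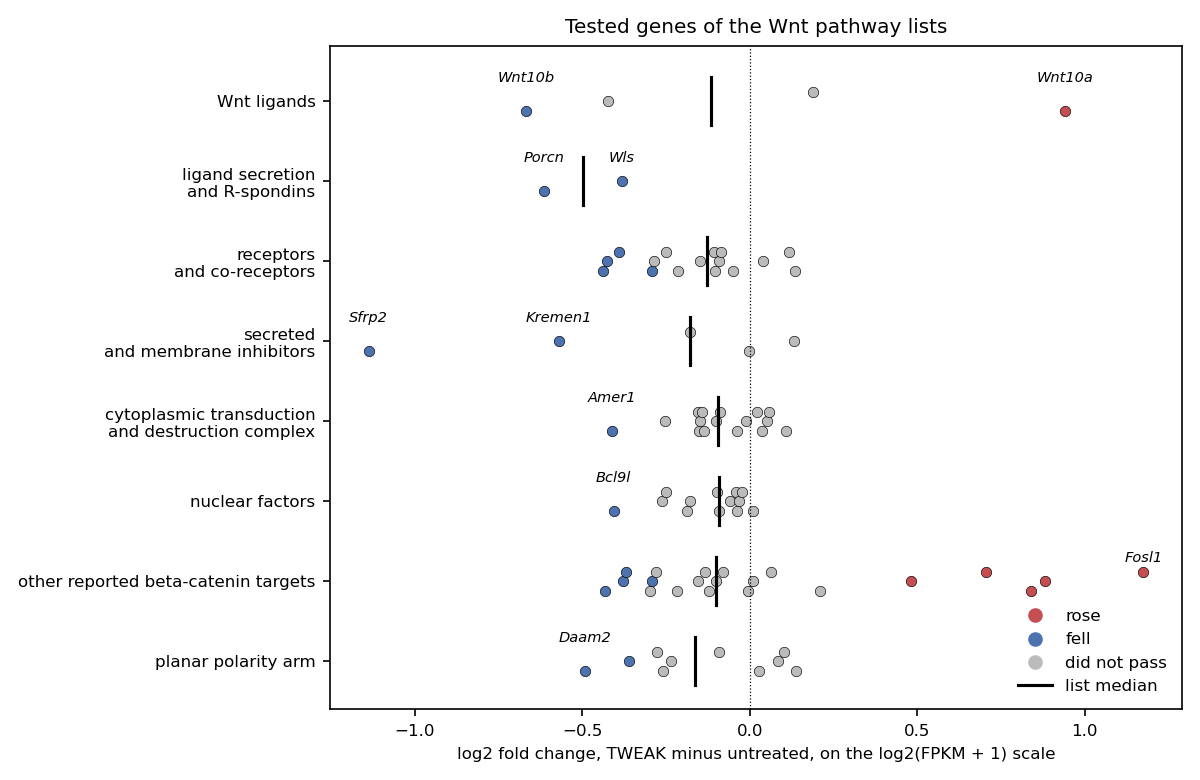
Log2 fold change, TWEAK minus untreated, of the 87 tested genes in the 8 lists of other Wnt pathway genes. Each point is 1 gene, coloured by whether it rose, fell or did not pass at an adjusted p of 0.05, and the black bar is the list median. Of the 66 genes outside the list of reported targets 13 fell and 1 rose, and of the 21 inside it 4 fell and 5 rose.

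Among the Wnt ligands 4 of 18 reached the minimum, of which 1 rose and 1 fell. Wnt10a, a ligand of skin and adipose biology, measured 15.2, 11.4 and 13.9 FPKM with TWEAK and 9.15, 5.77 and 5.16 FPKM without, for trials 1, 2 and 3. Its groups did not overlap, though TWEAK trial 2 was near untreated trial 1. It rose 2.02-fold, from 6.69 ± 2.15 to 13.5 ± 1.93 FPKM (SD, n = 3), with a limma adjusted p of 0.00814, and did not pass when no filter on low values was used (adjusted p = 0.0683). Wnt10b, the ligand closest to it in sequence, fell 1.80-fold, from 5.28 ± 0.924 to 2.93 ± 0.156 FPKM (limma adjusted p = 0.00451). The closest paralogs among the ligands thus moved in opposite directions. The neighbour of Wnt10a on chromosome 1, Wnt6, did not pass at 0.842 against 0.617 FPKM (limma adjusted p = 0.198). Wnt4 measured 1.01 FPKM with TWEAK and 1.72 FPKM without, and passed with the trial block (limma adjusted p = 0.00311) but not without it (adjusted p = 0.0936). Wnt9a, which measured 20.7 FPKM without TWEAK and 16.4 FPKM with it, stood above each of these ligands in both groups. Wnt2, Wnt3a, Wnt7a, Wnt8b and Wnt9b were at 0 in all libraries.

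Both tested genes of ligand secretion fell. Porcn, the acyltransferase that lipidates Wnt proteins, measured 49.9, 47.8 and 57.9 FPKM with TWEAK and 69.3, 88.2 and 82.6 FPKM without. Its groups stood well apart, and it fell 1.54-fold (limma adjusted p = 0.00566). Wls, the carrier that takes lipidated Wnt to the cell surface, fell 1.31-fold, from 141 ± 10.2 to 108 ± 6.56 FPKM (SD, n = 3, limma adjusted p = 0.0129). The Wls call was lost without TWEAK trial 2 (adjusted p = 0.067) or untreated trial 2 (adjusted p = 0.0522).

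Of 16 tested receptors and co-receptors, 4 fell, 0 rose and 12 did not pass, and 6 fell with the trial block, in which 12.5% of all tested genes fell. Fzd4 fell 1.69-fold, from 1.68 to 0.992 FPKM (limma adjusted p = 0.0107). Fzd1 fell from 26.9 to 19.6 FPKM (limma adjusted p = 0.0145), a call lost without TWEAK trial 2 (adjusted p = 0.0625) or untreated trial 3 (adjusted p = 0.0508). Lrp6, the co-receptor that carries the signal with Frizzled, fell from 10.7 ± 0.251 to 8.54 ± 0.30 FPKM (SD, n = 3, limma adjusted p = 0.0177). The Lrp6 call was lost without TWEAK trial 2 (adjusted p = 0.0839) or any of untreated trials 1, 2 and 3 (adjusted p = 0.0565, 0.0561 and 0.0554). The calls above were named by adjusted p, and the fourth, Fzd5, is named outside that rule, after its value was seen. Fzd5 measured 2.88 FPKM with TWEAK against 4.09 FPKM without (limma adjusted p = 0.018). It lost its call without TWEAK trial 2 (adjusted p = 0.0648), untreated trial 1 (adjusted p = 0.0724) or untreated trial 2 (adjusted p = 0.0716). Lrp5 measured 11.2 FPKM with TWEAK and 12.5 FPKM without and did not pass (limma adjusted p = 0.284). Lgr4, an R-spondin receptor that opposes Znrf3, measured 4.25 and 5.26 FPKM and passed only in some fits (limma adjusted p = 0.0616, with the trial block 0.0197). Its relative Lgr5, below the minimum, had 8, 4 and 14 reads with TWEAK and 74, 68 and 48 without, a level 6.52 times as high without TWEAK (95% exact binomial interval 4.31 to 10.2). These Lgr5 counts include a common whole factor, chosen so that they lay near the authors' deposited mean. With a smaller factor the ratio would be the same and the interval wider.

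Of 5 tested secreted and membrane inhibitors, 2 fell and 0 rose, where 6.1% of all tested genes fell and 8.98% rose. Sfrp2, a secreted protein that binds Wnt, measured 6.11, 5.03 and 7.96 FPKM with TWEAK and 11.8, 14.4 and 19.8 FPKM without, for trials 1, 2 and 3. The lowest untreated library lay above the highest TWEAK one, and trial 3 was the highest of each group. It fell 2.41-fold, with a log2 difference of -1.14 (SE 0.18, limma adjusted p = 0.00478). Kremen1, a receptor for Dickkopf proteins, fell 1.49-fold, from 75.0 ± 5.33 to 50.2 ± 2.78 FPKM (SD, n = 3, limma adjusted p = 0.00168). Dkk1 was at 0 in all libraries. Notum, an enzyme that removes the lipid of Wnt and is itself a target in other tissues, had 46 reads with TWEAK and 72 without, in overlapping libraries. Sfrp1 at 0.536 against 0.409 FPKM and Dkk2 at 0.355 against 0.286 FPKM were below the minimum and untested.

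**Figure D4:**
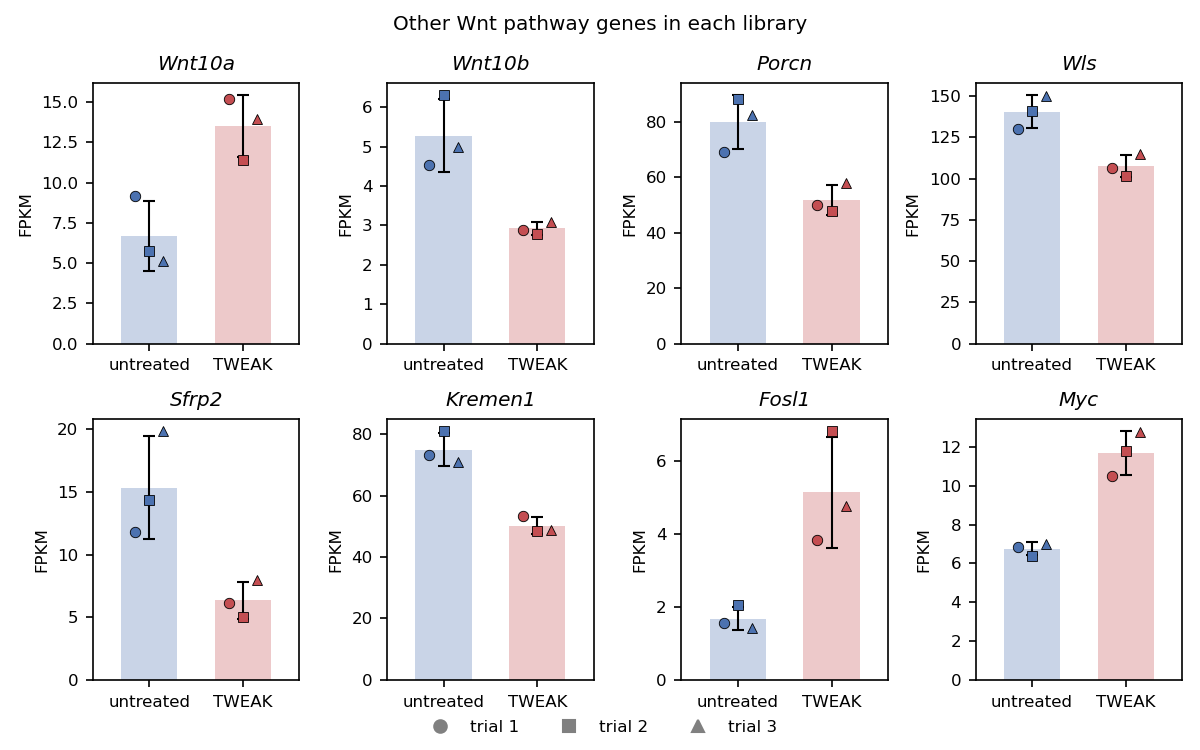
FPKM in each library of 8 other Wnt pathway genes, on linear axes from 0. Points are libraries with a shape for each trial, bars are group means and lines are SD (n = 3). TWEAK and untreated points do not overlap for any of the 8: Wnt10a, Fosl1 and Myc are higher with TWEAK, and Wnt10b, Porcn, Wls, Sfrp2 and Kremen1 are lower.

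Few cytoplasmic and nuclear genes of the pathway passed the test. Of 16 tested transduction and destruction complex genes, 1 fell and 15 did not pass, and of 13 tested nuclear factors, 1 fell and 12 did not pass. With the trial block the fallen numbered 2 of 16 and 3 of 13, beside 12.5% of all tested genes in that fit. Ctnnb1, which encodes beta-catenin, measured 190 ± 9.62 FPKM with TWEAK and 185 ± 10.4 FPKM without (SD, n = 3, limma adjusted p = 0.779). Gsk3b, the kinase that marks beta-catenin for destruction, measured 11.4 and 12.8 FPKM (limma adjusted p = 0.329). The Dishevelled genes, whose products Nkd2 binds, did not pass at 33.9 against 33.4 FPKM for Dvl1, 8.67 against 8.29 FPKM for Dvl2 and 16.8 against 18.6 FPKM for Dvl3, with TWEAK named first. Amer1, a scaffold of the destruction complex, fell 1.5-fold to 1.91 FPKM (limma adjusted p = 0.018), a call lost without TWEAK trial 2 (adjusted p = 0.0533), untreated trial 1 (adjusted p = 0.0722) or untreated trial 2 (adjusted p = 0.0692). Bcl9l, a beta-catenin co-activator, fell to 12.1 FPKM from 16.3 FPKM (limma adjusted p = 0.0452) with overlapping libraries, and lost its call without TWEAK trial 2 (adjusted p = 0.130), TWEAK trial 3 (adjusted p = 0.112), untreated trial 1 (adjusted p = 0.145) or untreated trial 2 (adjusted p = 0.148). Tcf7l1 at 5.72 against 6.19 FPKM (limma adjusted p = 0.499) and Tcf7l2 at 2.36 against 2.81 FPKM (limma adjusted p = 0.291) did not pass. With Tcf7, 3 of the 4 TCF/LEF genes thus had overlapping libraries.

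Other reported beta-catenin targets split in direction. Of 21 tested, 5 rose, 4 fell and 12 did not pass, where 8.98% of all tested genes rose and 6.1% fell. Fosl1, a component of the AP-1 transcription factor, measured 3.85, 6.82 and 4.77 FPKM with TWEAK and 1.57, 2.04 and 1.43 FPKM without, for trials 1, 2 and 3. All TWEAK libraries exceeded all untreated ones, and it rose 3.06-fold (limma adjusted p = 0.00242). Myc, a growth regulator, rose 1.73-fold, from 6.75 ± 0.334 to 11.7 ± 1.13 FPKM (SD, n = 3, limma adjusted p = 0.000900). Birc5, a mitotic protein that blocks apoptosis, rose 2.07-fold (limma adjusted p = 0.00642). Ccnd1, the cyclin of early cell cycle entry, rose 1.92-fold, from 12.0 ± 3.11 to 22.9 ± 6.45 FPKM (SD, n = 3, limma adjusted p = 0.0226). The Ccnd1 call was lost without TWEAK trial 2 (adjusted p = 0.0727), TWEAK trial 3 (adjusted p = 0.0536), untreated trial 1 (adjusted p = 0.063) or untreated trial 3 (adjusted p = 0.059). The fifth, Plaur, the urokinase receptor, is named outside the naming rule, after its value was seen. It rose 1.57-fold (limma adjusted p = 0.0215) and lost its call without TWEAK trial 2 (adjusted p = 0.0808), untreated trial 1 (adjusted p = 0.0777) or untreated trial 3 (adjusted p = 0.0614). These genes are also known to respond to signals other than Wnt.

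Among the targets that fell were a transcription factor and receptors. Sox9, a chondrocyte transcription factor, fell 1.41-fold to 5.56 FPKM (limma adjusted p = 0.0121), a call lost without TWEAK trial 2 (adjusted p = 0.0564) or untreated trial 1 (adjusted p = 0.0504). Met, the hepatocyte growth factor receptor of muscle precursors, fell 1.33-fold to 7.03 FPKM (limma adjusted p = 0.0127), lost without untreated trial 2 (adjusted p = 0.0548). Ephb2, an ephrin receptor, is likewise named after its value was seen. It fell 1.32-fold (limma adjusted p = 0.0398), and lost its call without TWEAK trial 1 (adjusted p = 0.0536), TWEAK trial 2 (adjusted p = 0.145), TWEAK trial 3 (adjusted p = 0.0670), untreated trial 1 (adjusted p = 0.122) or untreated trial 2 (adjusted p = 0.131).

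In the planar polarity arm, which signals without beta-catenin, 2 of 10 tested genes fell and 0 rose, and 5 fell with the trial block, beside 12.5% of all tested genes. Daam2, a formin that binds Dishevelled, fell 1.45-fold (limma adjusted p = 0.010). Prickle1 fell 1.35-fold (limma adjusted p = 0.0121), lost without TWEAK trial 2 (adjusted p = 0.0597).

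The genes whose profiles lay nearest to 3 of the members were found among 11462 tested genes with names. The measure was the mean absolute difference of log2(FPKM + 1), each gene centred on its own mean, over the 6 libraries. Among the profiles nearest to Axin2 were those of Ska3 (0.0401), a kinetochore protein, and Racgap1 (0.0404), which acts in cytokinesis. Nkd2 was nearest to Sfrp2 (0.0731), Tspan8 (0.0735) and Fgf5 (0.106). Tspan8 encodes a tetraspanin, and its level went from 12.8 ± 1.58 FPKM untreated to 4.78 ± 1.05 FPKM with TWEAK (SD, n = 3). Wnt9a was nearest to Fstl3 (0.0262), Galns (0.0306) and Srpx2 (0.0333). The Sfrp2 profile described above was thus the one nearest to that of Nkd2, both lowest in TWEAK trial 2 and highest in untreated trial 3.

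Markers of cell state moved between the same groups, in which 8.98% of all tested genes rose and 6.1% fell. With the trial block those shares were 15.4% and 12.5%. Of 10 undifferentiated myoblast and proliferation markers, all tested, 4 rose (Cd34, Mki67, Top2a and Ccna2) and 4 fell (Myf5, Id1, Id3 and Heyl). With the trial block 5 fell, the added gene being Pax7, the satellite cell transcription factor, at 1.6 ± 0.293 FPKM with TWEAK and 2.36 ± 0.427 FPKM without (SD, n = 3, limma adjusted p = 0.0704, with the block 0.00400). The summed level of the 10 was 107 to 127 FPKM with TWEAK and 96.8 to 116 FPKM without, and 0 of them were at 0. The Mki67 call (limma adjusted p = 0.0482) was lost without TWEAK trial 1 (adjusted p = 0.0954), TWEAK trial 2 (adjusted p = 0.160), untreated trial 1 (adjusted p = 0.107), untreated trial 2 (adjusted p = 0.0579) or untreated trial 3 (adjusted p = 0.143). Top2a, a topoisomerase of dividing cells, went from 14.2 ± 2.52 to 25.9 ± 5.61 FPKM (SD, n = 3, limma adjusted p = 0.00841), and like Axin2 was highest in trial 2 of each group. Of 10 differentiated myotube markers, all tested, 1 rose (Mymx) and 2 fell (Myh3 and Myh8). Their summed level was 13941 to 15659 FPKM with TWEAK and 15583 to 17071 FPKM without, so these markers were abundant in every library. Fusion into myotubes cannot be read from bulk RNA. The part of these markers in the levels of Axin2, Nkd2 and the other members was not tested.

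Each list of markers of other cell types summed to far less than the myotube markers, and none passed the test without the trial block. Single genes still reached levels within the range of the members, such as Cebpa at 5.85 FPKM with TWEAK and 5.34 FPKM without. Of the fibroblast list 4 of 5 were tested and 0 passed, with a summed level of 4.69 to 10.6 FPKM with TWEAK and 5.34 to 10.8 FPKM without, and Dpp4 at 0. Of the macrophage and leukocyte list 1 was tested and 0 passed, at 1.36 to 1.65 against 1.46 to 1.51 FPKM, with Adgre1 at 0. None of the endothelial list reached the minimum, at 0.140 to 0.214 against 0.169 to 0.210 FPKM. Of the adipocyte list 2 were tested and 0 passed, at 6.23 to 7.94 against 6.72 to 7.67 FPKM, with Plin1 at 0. With the trial block 1 of them, Lpl, the lipoprotein lipase gene, fell (limma adjusted p = 0.0181). Of the osteoblast list 1 was tested and 0 passed, at 2.74 to 3.02 against 3.28 to 3.67 FPKM, with Ibsp at 0.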

How the data were processed

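RNA-seq of C2C12 myotubes was compared between 3 TWEAK-treated and 3 untreated libraries, grouped by the treatment in the labels. The genome build was GRCm39, and the tools named per the submitters' processing notes are DESeq2 1.22.2, HTSeq 0.6.1p2, STAR 2.6.0c and Trim Galore 0.5.0. Neither strand use nor annotation release is given in the sources used here. Per the file headers, the deposited table gives FPKM for each library. It also holds the authors' mean normalized count (a signal scaled by library before it was deposited), log2 fold change with standard error, test statistic (a score) and p-values per gene, per the file headers. For 2337 genes the authors' mean is above 0 while all 6 libraries are at 0, so further libraries may have entered that mean. The labels and headers do not say so, and no such libraries are analysed here.

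Members and gene lists were chosen with earlier results of these data known. Counts were not used as deposited: whole reads were recovered from the FPKM, with 100% of 126386 values above 0 being whole to a relative tolerance of 1e-06. For 2981 genes a common whole factor above 1 was applied to the recovered reads. Among factors giving a whole gene length, it was the one that brought the reads nearest to the authors' mean normalized count. Depth was 29981300 to 40921330 reads. The main test was limma 3.58.1 (R 4.3.3) on log2(FPKM + 1) with genes of mean FPKM at least 0.5, group as the only term, two-sided, adjusted by the Benjamini-Hochberg method at 0.05. It was run on simulated independent counts without a trial effect, which does not check it for libraries that deviate together by trial. Members were not tested. Same-trial libraries deviated together (correlations of deviations from the group means over genes 0.473, 0.218 and 0.434 for trials 1, 2 and 3), so a fit with trial as a replicate block was an alternative. Others were a pseudocount of 0.1, no filter, a minimum of 2, limma-voom on the recovered reads, median-centred libraries and leaving out each library. Named genes were all members, up to 3 rising and 3 falling genes per list by adjusted p, and preset pathway components; for 3 members, the 3 nearest profiles. Some genes that this rule names are not reported here. Intervals were exact binomial at 95% (Python 3.11.15, scipy 1.17.1). Promoters were RefSeq entries of GRCm38.p6, scanned for 3 motifs. Columns of per-sample values with no matching sample numbered 0.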

Additional observations from a re-analysis of the deposited data

How the results depend on the processing

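Differences of the 7 members kept their sign in 82 of 82 alternative values. Of these values, 10 moved by more than the spread between replicates and 0 reversed. With a pseudocount of 0.1 and with limma-voom on recovered reads, Axin2 went from 0.58 to 0.78 and 0.82. In the same 2 settings Nkd2 went from -1.20 to -1.67 and -1.78, Dkk3 from -0.36 to -0.57 and -0.63. Lef1 went from 0.18 to 0.29 and 0.31. With no filter on low values, 499 genes rose and 302 fell, in place of 1147 and 779, and among the other Wnt pathway genes 2 rose and 6 fell, in place of 6 and 17; Wnt10a, Wls, Fzd4, Fzd1, Amer1, Bcl9l, Sox9 and Ccnd1 were among those that then missed the threshold (limma adjusted p from 0.0553 for Wls to 0.156 for Bcl9l). Under a replicate block on trial, 1965 genes rose and 1598 fell, and 7 and 28 of the other Wnt pathway genes; of the calls named in the report, the block changed those of Wnt4, Lgr4, Pax7 and Lpl. Leaving out each library gave 501 to 1266 genes that rose and 343 to 835 that fell, and 4 to 6 and 7 to 19 of the other Wnt pathway genes. The lowest counts that rose and fell over all genes came without TWEAK trial 2, at 501 and 343. Without untreated trial 1 they were 640 and 459, without untreated trial 2 they were 705 and 399, and without untreated trial 3 the risen numbered 741. Of 359 alternative values of the other named genes, 318 kept direction and side of the threshold, 38 lost the call, 3 gained it and 0 reversed; uncalled Ctnnb1 and Dvl1 changed sign. The causes were not tested. Depth limits Nkd1, Rnf43 and Sp5, which had at most 7 reads in any library.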

Other observations

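The deposited mean normalized count of the authors may cover more libraries than the 6 given here, which no label states. The level in the 6 libraries, as a share of that mean, differed between genes. Relative to the median gene, the share was 1.31 for Axin2 and 1.29 for Nkd2. It was 0.899 for Wnt9a, 0.850 for Dkk3, 1.10 for Lef1, 1.07 for Tcf7 and 1.00 for Znrf3. Over the 12770 tested genes the 5th to 95th percentiles were 0.878 and 1.14. Axin2 and Nkd2, whose levels moved in opposite directions with TWEAK, thus both lay above the 95th percentile of tested genes, and Dkk3 lay below the 5th. Of the other pathway genes, Fosl1 was at 1.35, Plaur at 1.38 and Wnt10b at 0.768. Lgr5 was at 1.36, but its reads hold a common factor chosen against this same mean, so nothing is read from its share. These genes were picked after their values were seen.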
